A study of Mus musculus with 6 samples.

Results

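The Gadd45 family is made up of 3 genes in the mouse, Gadd45a, Gadd45b and Gadd45g, and all 3 were found by gene name among the 345 genes of the deposited RNA-seq table. RAW264.7 cells, a macrophage-like mouse line from an Abelson leukemia virus-induced tumor, were cultured for 48 h in diluted extract of the porous Zn-0.8Li scaffold with gyroid (G) pore units (G scaffold group, n = 3 libraries). Untreated cells of the same line served as the Control group (n = 3 libraries), and the comparison asked which transcripts of the macrophage line differ in the presence of the extract. The extract was compared with no extract in a single transformed line, so effects of zinc, of lithium and of other properties of the extract cannot be told apart. The members were selected by name from a table that holds only genes the authors had called different between these same 6 libraries. Their difference between the groups is therefore a property of how they were selected, and it is described here without a p-value.

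Gadd45 proteins are small nuclear proteins that are made in response to stress and to differentiation signals. They bind the kinase MTK1 (Map3k4), which switches on the p38 and JNK MAP kinases, and they also bind PCNA, the CDK inhibitor p21 and the CDK1-cyclin B1 complex, through which they slow the cell cycle. Gadd45a is the member best known as a p53 target after DNA damage. Gadd45b was found as a myeloid differentiation gene and is induced by NF-kB, and Gadd45g is known as a cytokine-induced member.

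The members lie on separate chromosomes. The deposited table gives them identifiers and positions of the annotation of SPRET/EiJ, a Mus spretus strain, whereas the submitters' processing notes name the builds GRCm38 and mm10. In the table, Gadd45a (MGP_SPRETEiJ_G0029476) spans chr6:65608599-65613875 (minus strand), Gadd45b (MGP_SPRETEiJ_G0016430) spans chr10:79826209-79830075 (plus strand), and Gadd45g (MGP_SPRETEiJ_G0019402) spans chr13:49146870-49149280 (plus strand). In the GENCODE M21 annotation of GRCm38 each has a coding transcript of 4 exons, with coding lengths of 495, 480 and 477 nt for Gadd45a, Gadd45b and Gadd45g. Over aligned coding bases, Gadd45b and Gadd45g shared 66.7% of their bases, Gadd45a and Gadd45g 64.9%, and Gadd45a and Gadd45b 61.7%. The longest exact stretch that any pair of these transcripts had in common was 17 nt, between Gadd45a and Gadd45g. Gadd45a overlaps the antisense transcript gene E230016M11Rik in 337 of its 1764 exonic bases (19.1%) in that annotation. Whether the authors counted by strand is not given in the sources used here, so reads of these overlapping genes cannot be told apart.

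The promoters are shown because the motif matches they share, and those they do not, separate the 3 members. The 250 bases before the RefSeq start of each gene were read from GRCm38.p6, 5′ to 3′ on the strand of the gene. They are chr6:67037408-67037657 (minus strand) for Gadd45a, chr10:80929841-80930090 (plus strand) for Gadd45b and chr13:51846425-51846674 (plus strand) for Gadd45g. Capitals mark matches on either strand to a TATA box, a CCAAT box, an octamer, an E box or a C/EBP-ATF element, which are spelled out with their counts after the sequences.
Gadd45a: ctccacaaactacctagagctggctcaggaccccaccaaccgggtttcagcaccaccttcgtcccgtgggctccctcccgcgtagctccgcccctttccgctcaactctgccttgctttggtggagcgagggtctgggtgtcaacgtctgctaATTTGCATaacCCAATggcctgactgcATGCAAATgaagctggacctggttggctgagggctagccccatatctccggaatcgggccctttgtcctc
Gadd45b: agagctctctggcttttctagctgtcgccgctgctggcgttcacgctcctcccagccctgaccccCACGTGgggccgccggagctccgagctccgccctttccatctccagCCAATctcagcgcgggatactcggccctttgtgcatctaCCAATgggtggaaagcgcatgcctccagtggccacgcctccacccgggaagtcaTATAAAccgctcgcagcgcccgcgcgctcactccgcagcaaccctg
Gadd45g: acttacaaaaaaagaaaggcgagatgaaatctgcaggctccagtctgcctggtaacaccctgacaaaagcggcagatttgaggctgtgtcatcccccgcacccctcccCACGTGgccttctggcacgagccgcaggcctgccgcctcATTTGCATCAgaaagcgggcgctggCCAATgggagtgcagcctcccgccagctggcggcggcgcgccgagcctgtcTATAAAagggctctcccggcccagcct

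All 3 promoters held a CCAAT box (the letters in its name) on the gene strand. Counted back from the start, it began at base -86 in Gadd45a, at bases -139 and -100 in Gadd45b and at base -78 in Gadd45g. Of 32851 RefSeq promoters cut to the same length, 33.8% held this motif. Gadd45a and Gadd45g shared the octamer ATGCAAAT, the binding motif of Oct-1, which is rarer (1.60% of promoters). Gadd45a had 2 copies and Gadd45g had 1, which overlapped a match to the C/EBP-ATF element TGATGNAA (3.45% of promoters). Gadd45b and Gadd45g shared a TATA box (TATAAA, 12.4% of promoters), beginning at bases -46 and -27, and an E box (CACGTG, 6.02%), and neither motif was found in Gadd45a. A GC box (GGGCGG, 32.7% of promoters) was found in Gadd45a and Gadd45b. A match to the EGR site (GCGNGGGCG, 4.70%) was found in Gadd45b, and a match to the core of the metal response element (TGCACNC or TGCGCNC, 21.4%) in Gadd45g. No match to an AP-1 site (TGANTCA, 6.75% of promoters), to a CRE (TGACGTCA, 1.55%), to its shorter core (TGACG, 17.8%) or to a kappaB site (7.25%) lay in these windows. All positions depend on the start used. The RefSeq starts lie at bases 67037407, 80930091 and 51846675 for Gadd45a, Gadd45b and Gadd45g. In GENCODE M21 these genes start at bases 67037457, 80930073 and 51846678, so part of the windows of Gadd45a and Gadd45b lies inside the gene there. These matches describe letters and not bound sites, and the motifs were chosen with the sequences known.

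**Figure D1:**
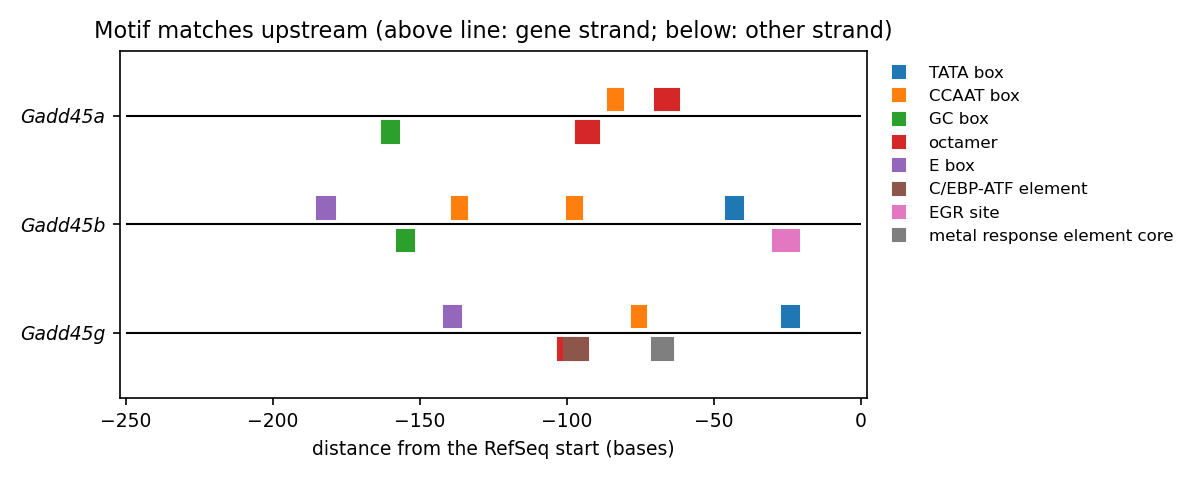
Positions of the motif matches in the 250 bases before the RefSeq start of each Gadd45 gene, in bases from the start (x axis). Boxes above a line are on the gene strand and boxes below it on the other strand. The CCAAT box is present in all 3 genes, the TATA box and the E box in Gadd45b and Gadd45g only, and the octamer in Gadd45a and Gadd45g only.

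Each value is a normalized count, that is, the reads of a gene divided by a size factor of its library, and a change is a difference on the log2(normalized count + 1) scale. Gadd45g stood at 24.8, 33.5 and 26.8 normalized counts in the Control libraries (replicates 1, 2 and 3, here and below) and at 1114, 892 and 899.7 in those given the extract. The groups were far apart, and G scaffold replicate 1 was the highest. The group means were 28.4 ± 4.57 and 969 ± 126 normalized counts (SD, n = 3 per group), with a ratio of 34.1. The log2 change of Gadd45g was 5.05 (standard error 0.175).

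Gadd45b stood at 112, 108 and 126 normalized counts in the Control libraries and at 1232, 1031 and 1010.3 in the libraries with extract. The groups did not overlap, and G scaffold replicate 1 was again the highest. The means were 116 ± 9.39 and 1091 ± 122 normalized counts (SD, n = 3 per group), with a ratio of 9.44. The log2 change of Gadd45b was 3.23 (standard error 0.146).

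Gadd45a stood at 4.97, 9.74 and 19.1 normalized counts in the Control libraries and at 50.4, 50.2 and 61.7 in the libraries with extract. These Control values rest on 5, 9 and 20 reads, and the exact Poisson 95% interval, which covers counting error only, runs from 1.61 to 11.6 normalized counts for replicate 1 and from 11.7 to 29.5 for replicate 3. Control replicate 3 was thus above replicate 1 by more than counting error, while the groups still did not overlap. The means were 11.3 ± 7.19 and 54.1 ± 6.58 normalized counts (SD, n = 3 per group), with a ratio of 4.80. The log2 change of 2.33 had the largest standard error of the 3 members (0.433), and it was 2.78 without Control replicate 3 and 1.90 without Control replicate 1.

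**Figure D2:**
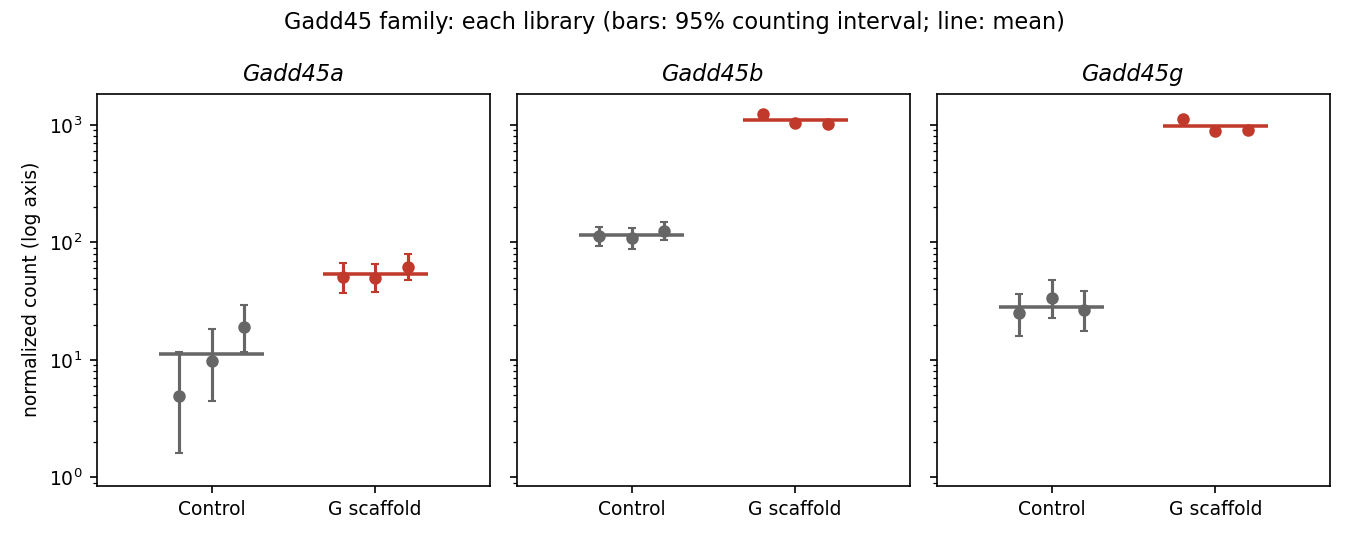
Normalized counts (y axis, log scale) of Gadd45a, Gadd45b and Gadd45g in each of 3 Control (grey) and 3 G scaffold (red) libraries. Points are libraries, vertical bars are exact Poisson 95% intervals of the reads, and horizontal lines are group means. The groups do not overlap for any member, and the Control libraries of Gadd45a spread the most, from 4.97 to 19.1.

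All 3 members were past the thresholds of the study (adjusted p-value of at most 0.05 and log2 change of at least 1), in a table in which 82.6% of the genes were called higher by the same test. All 3 were also without overlap between the groups and higher in the G scaffold group, as were 82.9% of the listed genes. Both shares follow from how the table was made, and nothing is read from them. The median log2 change over the 345 listed genes was 1.87. Over all 345 listed genes, 15 had a larger log2 change than Gadd45g, 55 a larger one than Gadd45b and 142 a larger one than Gadd45a. Among the 246 listed genes for which at least 1 Control library held over 3 reads, these numbers were 4, 18 and 44.

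The members were then set beside genes with a like normalized count in Control (group mean within 1.5-fold of the member, not set per kb). Of 43 such genes for Gadd45g none had a larger log2 change, and the next was Plk2, a stress-induced polo-like kinase gene, at 4.20 (median of the 43, 1.20). Of 29 such genes for Gadd45b none had a larger log2 change either, and the next was Dusp1, which encodes a MAP kinase phosphatase, at 3.02 (median of the 29, 1.33). Gadd45a was exceeded by 7 of 45 such genes, the largest being Fosb at 6.03 (median of the 45, 1.61). A log2 change above 0 was found for 33 of the 43, 19 of the 29 and 42 of the 45, so lowered genes enter these comparisons and medians too. These are descriptions of listed genes, and genes outside the table are not analysed here.

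**Figure D3:**
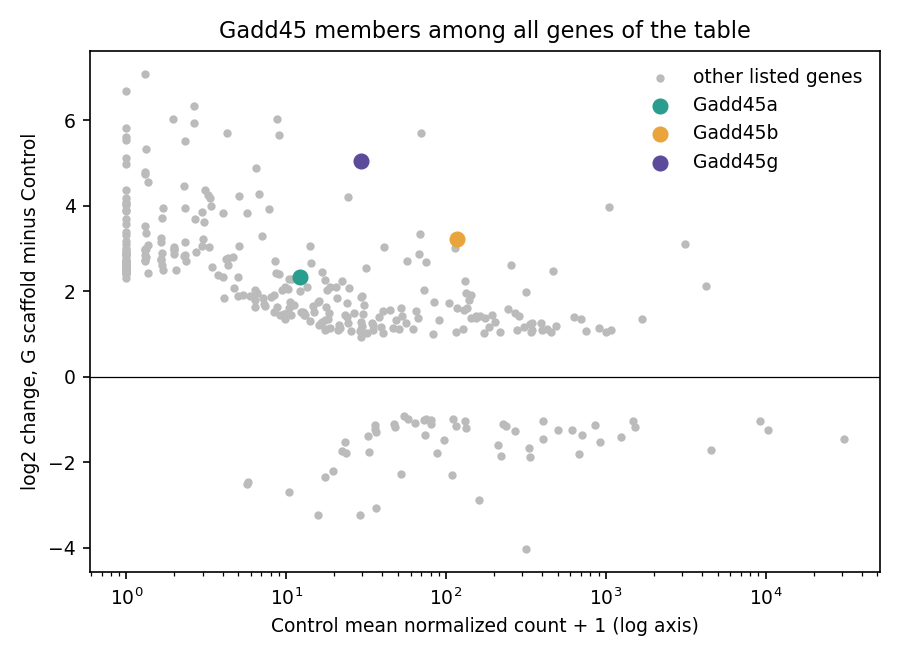
Log2 change of each of the 345 listed genes (y axis, G scaffold minus Control, on the log2(normalized count + 1) scale) against its Control mean + 1 (x axis, log scale). Gadd45g and Gadd45b lie above the listed genes with a Control mean within 1.5-fold of theirs, and Gadd45a lies within the range of its own neighbours. The band around 0 is empty because the table holds only genes past the thresholds.

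The scaling moved the size of these changes. TMM factors computed over the listed genes shifted the median log2 change of all listed genes by -1.39, and column totals shifted it by -0.60. TMM assumes that most genes do not change, and this table holds called genes only. Under TMM factors all 3 members stayed above 0, at 3.59 for Gadd45g, 1.75 for Gadd45b and 0.93 for Gadd45a, and Gadd45a was no longer past the thresholds. Under column totals the log2 changes were 4.41, 2.58 and 1.73, all past the thresholds. Of the 345 listed genes, 134 were called higher under TMM factors and 191 under column totals.

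Levels of different genes were compared per kb of the gene length given in the table (1235 nt for Gadd45g, 1264 nt for Gadd45b and 1913 nt for Gadd45a). In the Control group Gadd45b had the highest level, with 91.4 ± 7.43 normalized counts per kb (SD, n = 3). Gadd45g followed with 23.0 ± 3.70 and Gadd45a with 5.89 ± 3.76 normalized counts per kb. This order held in each of the 3 Control libraries, and the ranges of neighbouring members did not overlap. In the G scaffold group Gadd45b and Gadd45g had 863 ± 96.8 and 784 ± 102 normalized counts per kb, a difference smaller than their spread between libraries, although Gadd45b was the higher in each library. Gadd45a was far lower, with 28.3 ± 3.44 normalized counts per kb.

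The make-up of the family therefore differed between the groups. Gadd45b held 79.6%, 72.6% and 75.9% of the family sum per kb in the Control libraries, compared with 51.2%, 52.1% and 51.2% in the G scaffold libraries. The share of Gadd45g was 18.0%, 23.0% and 16.5% in the Control libraries, compared with 47.4%, 46.2% and 46.7% in the G scaffold libraries. The shares of these 2 members did not overlap between the groups. Gadd45a held 2.33% to 7.60% of the sum in the Control group and 1.38% to 2.07% in the G scaffold group, although its own count was higher there. The sum of the 3 members went from 120.3 ± 10.2 to 1676 ± 197 normalized counts per kb (SD, n = 3 in each group), a ratio of 13.9.

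**Figure D4:**
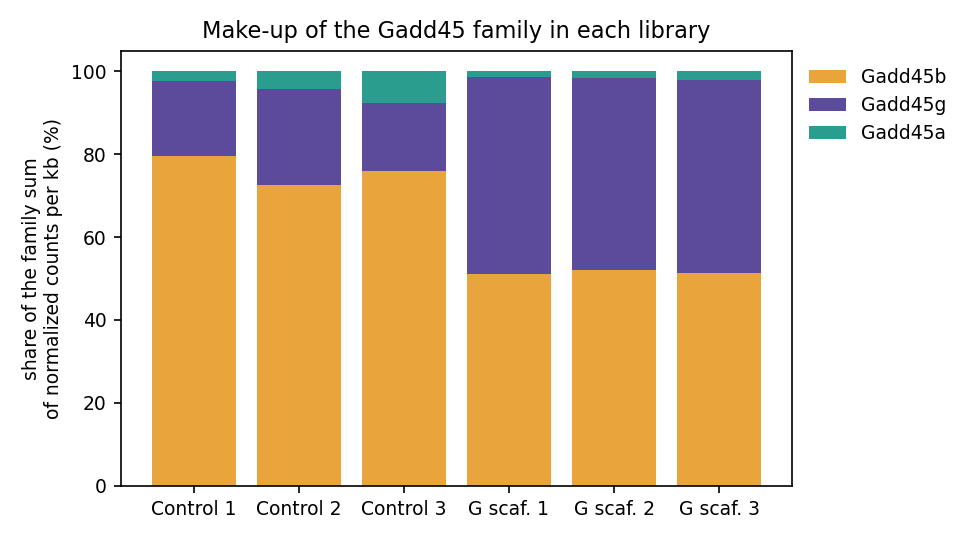
Share of each member in the summed normalized counts per kb of the Gadd45 family (y axis, percent) in each library (x axis). Gadd45b makes up 72.6% to 79.6% of the sum in the Control libraries and 51.2% to 52.1% in the G scaffold libraries, where Gadd45g makes up 46.2% to 47.4%.

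The ratio of Gadd45g to Gadd45b within a library needs no scaling between libraries. Per kb it was 0.226, 0.317 and 0.217 in the Control libraries, compared with 0.925, 0.886 and 0.911 in the G scaffold libraries. The ratio was nearly even among the G scaffold libraries (0.908 ± 0.0202, SD, n = 3), although the levels of both genes varied there with coefficients of variation of 13.0% for Gadd45g and 11.2% for Gadd45b. The log2 change of Gadd45g exceeded that of Gadd45b by 1.82 (standard error 0.170) and that of Gadd45a by 2.72 (standard error 0.523). The log2 change of Gadd45b exceeded that of Gadd45a by 0.89 (standard error 0.488), and the within-library log2 ratios of this pair overlapped between the groups, running from 2.66 to 4.25 without extract and from 4.01 to 4.58 with it. The members come from the contrast that built the table, so these differences carry no test.

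The order of Gadd45b and Gadd45g in the treated cells rested on the gene lengths. The gene models of the table differ from those of GENCODE M21, whose coding transcripts have 1071 nt for Gadd45g, 1284 nt for Gadd45b and 1223 nt for Gadd45a. With these lengths the ratio of Gadd45g to Gadd45b was 1.06 ± 0.0237 in the G scaffold group and 0.297 ± 0.0648 in the Control group (SD, n = 3 in each group). The shares in the G scaffold group were then 50.2% for Gadd45g, 47.3% for Gadd45b and 2.49% for Gadd45a. Gadd45b stayed the highest member in the Control group, with 71.7% of the sum.

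The spread between libraries differed among members. In G scaffold replicate 1, Gadd45g and Gadd45b exceeded the mean of the other 2 G scaffold libraries by 0.31 and 0.27 on the log2 scale, whereas Gadd45a differed by -0.14. The median of this difference over all listed genes was 0.05, and 38.3% of the listed genes were highest in that library. Reads of Gadd45g and Gadd45b varied among the G scaffold libraries by more than counting error, with chi-square over degrees of freedom of 16.5 and 13.8. In the Control group the same measure was 0.708 and 0.764 for these genes, but 4.66 for Gadd45a (medians over listed genes, 1.11 for Control and 1.40 for G scaffold). At an equal coefficient of variation this measure is larger for genes with more reads, so it does not compare the spread of the groups. The coefficients of variation in Control and G scaffold were 16.1% and 13.0% for Gadd45g and 8.13% and 11.2% for Gadd45b. For Gadd45a they were 63.8% and 12.2%.

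The relatives of the family and its pathway were read from lists of genes, of which only genes in the table could be seen. Of all listed genes 82.6% were called higher and 15.9% lower, so counts of called genes near these shares are no result about a list. The number of the 345 listed genes called higher was 134 with TMM factors, 191 with column totals and 194 with a pseudocount of 10. Counts of a list under those settings go beside these numbers. TMM factors also moved the median log2 change of all listed genes by -1.39. Of 6 genes with a growth arrest and DNA damage name, 5 were listed. Beside the 3 Gadd45 members these are Ppp1r15a (Gadd34), which encodes a phosphatase subunit that restores translation after stress, and Ddit3 (Gadd153), which encodes the transcription factor CHOP. Ppp1r15a had 227, 164 and 191 normalized counts in the Control libraries and 581, 479 and 509 in the libraries with extract. Ddit3 had 139, 146 and 173 against 426, 364 and 401. Their log2 changes of 1.43 and 1.38 were smaller than those of all 3 Gadd45 members, and TMM factors placed them at -0.05 and -0.10.

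Of 20 genes of the MTK1, p38 and JNK module that Gadd45 proteins act on, 1 was listed. This was Mapk12, which encodes the kinase p38 gamma, with 8.67 ± 2.22 normalized counts without extract and 25.2 ± 3.33 with it (SD, n = 3 per group), a log2 change of 1.46 that was 0.07 with TMM factors. None of 16 cell cycle and DNA repair partners, among them Pcna, Cdkn1a, Cdk1 and Ccnb1, was listed. Of 11 MAP kinase phosphatase genes, which encode enzymes that switch off p38, JNK and ERK, 4 were listed. All 4 were past the thresholds and higher in the G scaffold group, beside 82.6% of all listed genes. Under column totals 3 of 4 were, beside 191 of the 345 listed genes. With a pseudocount of 10 it was again 3 of 4, beside 194 of the 345. Dusp1 had 114 ± 11.4 and 924 ± 53.6 normalized counts in Control and G scaffold (SD, n = 3 per group), a log2 change of 3.02. The log2 changes of Dusp5, Dusp8 and Dusp2 were 3.02, 1.87 and 1.56, and with TMM factors Dusp1 and Dusp5 were still past the thresholds and all 4 were above 0.

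Of 26 genes of factors known to regulate Gadd45 genes, 3 were listed, Egr1, Fos and Myc, and all 3 were past the thresholds and higher in the G scaffold group, beside 82.6% of all listed genes. Egr1, an early-response zinc finger factor, had 467 ± 17.3 and 2610.5 ± 179 normalized counts without and with extract (SD, n = 3 per group). The log2 changes of Egr1, Fos and Myc were 2.48, 1.98 and 1.50, and with TMM factors all 3 stayed above 0 but none was past the thresholds (0.998, 0.50 and 0.10). The genes of p53 and of the NF-kB subunits on the list were not in the table.

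Of 24 p53 target genes, 4 were listed, of which 3 were past the thresholds and higher and 1 was past them and lower, beside 82.6% and 15.9% of all listed genes. Plk2 and Plk3, which encode polo-like kinases, had log2 changes of 4.20 and 1.73, and Sesn2, which encodes a stress-induced inhibitor of mTORC1 signaling, had 1.10. Trp53i11 was lower, with 919 ± 59.1 normalized counts without extract and 319 ± 10.2 with it (SD, n = 3 per group), a log2 change of -1.52. With TMM factors Sesn2 was at -0.38 and Plk3 at 0.26, and Plk2 was the only 1 of the 4 still past the thresholds and higher. The best-known p53 targets on the list, Cdkn1a and Mdm2, were not in the table.

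Of 21 NF-kB target genes, 6 were listed, and all 6 were past the thresholds and higher in the G scaffold group, again beside 82.6% of all listed genes. They are the chemokine genes Ccl5, Cxcl2, Cxcl10, Ccl4 and Ccl3, with log2 changes of 3.93, 3.06, 2.28, 1.91 and 1.10, and Ptgs2, the gene of inducible cyclooxygenase, with 2.23. With TMM factors Ccl3 was below 0 (-0.38), and only Ccl5 and Cxcl2 were past the thresholds, beside 134 of the 345 listed genes called higher. Of 18 integrated stress response genes, 6 were listed, all past the thresholds and higher, beside 82.6% of all listed genes. Under column totals 1 of the 6 (Ddit4) was, beside 191 of the 345 listed genes. The median log2 change of the 6 was 1.40, below the 1.87 of all listed genes. With TMM factors 2 of the 6 were above 0 and none was past the thresholds. Beside Ppp1r15a, Ddit3 and Sesn2 they are Ddit4, which encodes another mTORC1 inhibitor (2.24), Chac1, which encodes a glutathione-degrading enzyme (1.60), and Trib3, which encodes a pseudokinase (1.04).

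**Figure D5:**
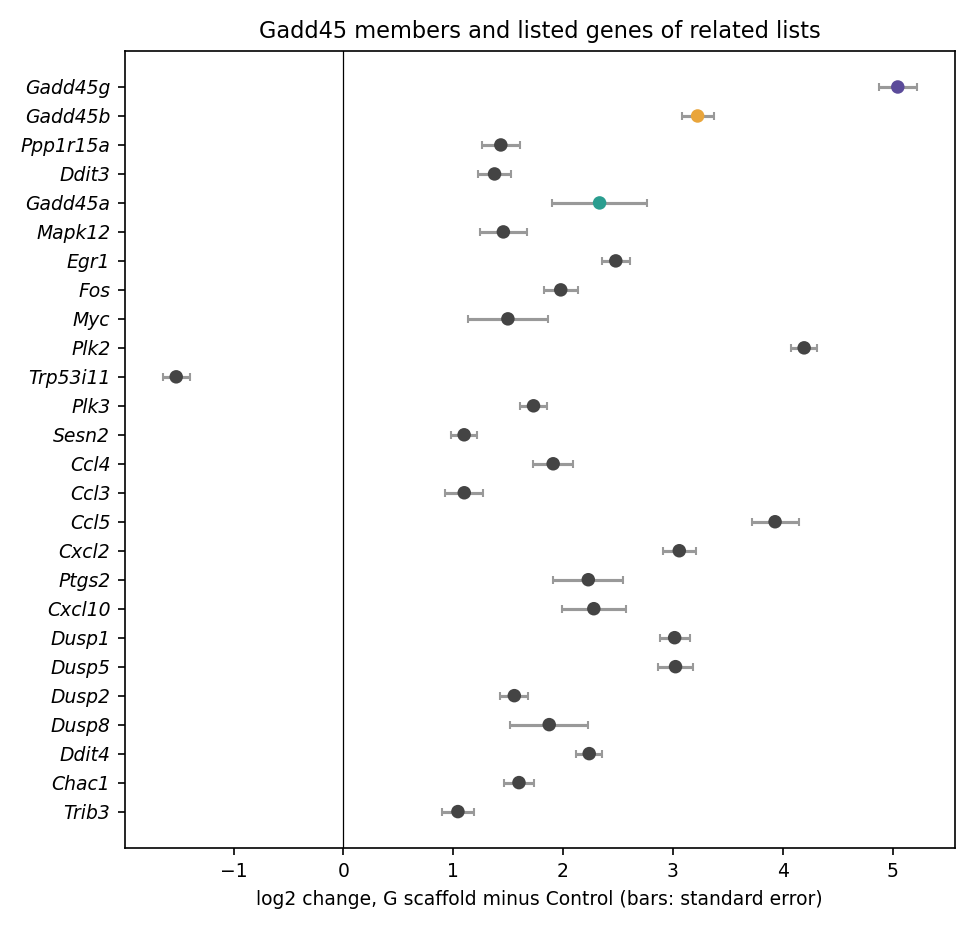
Log2 change (x axis, G scaffold minus Control, with standard error) of the Gadd45 members (coloured) and of the listed genes of the related lists (black), each gene shown once. Gadd45g at 5.05 has the largest value of the genes drawn, and Trp53i11 at -1.52 is the only gene drawn below 0. With TMM factors, which moved the median log2 change of all listed genes by -1.39, Ppp1r15a, Ddit3, Sesn2, Trib3 and Ccl3 were below 0 too.

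The genes of the table with the profile most like each member were found by the root mean square difference over the 6 libraries, with each profile set relative to its own Control mean. A small value therefore mostly means a log2 change of like size, and shared control was not tested. For Gadd45b the nearest was the metallothionein gene Mt1 (0.146 on the log2 scale), followed by Cxcl2 (0.177), Bcl2l15 (0.187) and, in the fifth place, the kinase gene Sgk1 (0.190). Bcl2l15 had 0 reads in all 3 Control libraries, so its likeness depends on the pseudocount. For Gadd45a the nearest was Hmcn2 (0.126), with means of 7.63 and 41.3 normalized counts without and with extract, followed by Src (0.289), Arl4d (0.401), Rnf183 (0.422) and Gpa33 (0.441). For Gadd45g the nearest were Myo18b (0.139), Lrrc36 (0.202), Grhl2 (0.424), Col5a3 (0.429) and Atp13a4 (0.448), which had no more than about 1 read in each Control library. The same measure between members was 0.798 for Gadd45a and Gadd45b, 1.30 for Gadd45b and Gadd45g and 1.99 for Gadd45a and Gadd45g.

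With a pseudocount of 10 in place of 1, 2 of the 5 nearest genes of Gadd45b (Mt1 and Sgk1) and 2 of those of Gadd45a (Hmcn2 and Src) were kept, and none of those of Gadd45g. The nearest to Gadd45g was then a gene with no name (0.170). Named after the values were seen, the next nearest to Gadd45g were Fosb (0.304), Rasd1 (0.337), Atp1b2 (0.430) and Hbegf (0.50). The 5 nearest to Gadd45b were then Rgcc (0.114), Mt1 (0.120), Ptpn14 (0.160), Sgk1 (0.165) and Dusp1 (0.196). Rgcc and Ptpn14 too were named after the values were seen.

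In the table, 1 of 10 macrophage markers was listed. Mpeg1 (perforin-2) had 8717 to 9896 normalized counts in the Control libraries and 4161 to 4793 in the G scaffold libraries. Of 14 markers of other cell types 1 was listed, the collagen gene Col1a1, with 0 reads in the Control libraries and 4.89 to 8.68 normalized counts in the G scaffold libraries. The other macrophage markers were not in the table, so the cell type could not be checked against them. The part of other cells in the Gadd45 values was not tested. Fewer cells expressing a gene and less RNA of it per cell cannot be told apart in these bulk libraries. Over the listed genes, Control libraries held 88836 to 100895 reads and G scaffold libraries 150056 to 156029, sums that leave out all other genes and so do not give the depth.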

How the data were processed

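RNA of RAW264.7 cells was sequenced in 3 Control and 3 G scaffold libraries, grouped by the sample titles. The titles carry C or Zn with a number, and the Zn libraries were matched to the G scaffold group of the study. The authors deposited a table of genes past their thresholds. Its signal columns hold, reads per gene and library, scaled by the authors with a size factor for each library (0.924 to 1.05). The table's gene length (nt) was used per kb. The aligner and counting program are not given in the sources used here. The authors' group means, fold changes and p-values were in the table and were not used.

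All values (100%, tolerance 0.01 reads) were whole multiples of the value of 1 read, which gave the recovered reads. No pair of libraries of a group agreed within sampling noise (chi-square per degree of freedom, 2.79 to 7.90). Whether replicates were separate cultures is not stated, so their spread may be technical. limma 3.58.1 in R 4.3.3 was fitted to log2(normalized count + 1) of all 345 genes with a group term alone, and p-values were adjusted by Benjamini-Hochberg. edgeR 4.0.16 and DESeq2 1.42.0 on recovered reads, other scalings, pseudocounts and filters, a replicate block and leaving out each library were alternatives. The limma and edgeR fits were tested on simulated data. In these, low means were raised and changes went both ways with equal odds. Genes with almost no reads and a table of mostly higher genes were thus not tried. Promoters came from RefSeq (GRCm38.p6), where all 3 members matched by symbol, and transcripts from GENCODE M21, aligned with Biopython 1.88. The named genes are the members, the listed genes of each list and the 5 nearest genes, of which 1 is not reported here. Members, lists and motifs were chosen with earlier results of these data known.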

Additional observations from a re-analysis of the deposited data

How the results depend on the processing

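The log2 changes of Gadd45b and Gadd45g kept their direction and stayed past the thresholds under edgeR, DESeq2, TMM factors, column totals, pseudocounts of 0.1 and 10, both filters, the replicate block and without each library. Gadd45a did so too except under TMM factors over the listed genes, where it was 0.93, and it was removed by both filters. Of the 345 listed genes, 287 were called higher with edgeR and with DESeq2, 134 with TMM factors and 191 with column totals. The number was 285 with a pseudocount of 0.1, 194 with a pseudocount of 10 and 284 with the replicate block. The filter at 10 in every library kept 161 genes, of which 115 were called higher. The filter at a mean of 100 kept 92, of which 68 were. Without each library in turn, the log2 change ranged from 1.90 to 2.78 for Gadd45a, from 3.14 to 3.29 for Gadd45b and from 4.94 to 5.17 for Gadd45g. All 3 members were still past the thresholds, and 276 to 283 of the 345 listed genes were called higher. With a pseudocount of 10 the difference between Gadd45g and Gadd45b was 1.54 and that between Gadd45b and Gadd45a 1.49. Without each library, the difference between Gadd45g and Gadd45b ranged from 1.72 to 1.99, that between Gadd45g and Gadd45a from 2.24 to 3.06 and that between Gadd45b and Gadd45a from 0.51 to 1.31. Of these fits, the differences from Gadd45a were lowest without Control replicate 3 and highest without Control replicate 1.

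The ratio per kb of Gadd45g to Gadd45b in the G scaffold group was 0.887 with no division by length and 1.06 with GENCODE lengths, an alternative chosen after seeing the data. That of Gadd45a to Gadd45b was 0.0502 and 0.0527 there, and 0.10 in Control with GENCODE lengths. With a pseudocount of 10, the kept nearest genes were 2 of 5 for Gadd45a, 2 for Gadd45b and 0 for Gadd45g. Over all listed genes, 285 were called higher and 55 lower. The higher count was 134 with TMM factors, 115 with the filter at 10 in every library and 68 with that at a mean of 100, where the lower count was 23. Without each library it ranged from 276 to 283, and the lower count from 50 to 53.

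No pairing by replicate number was seen, as the deviations of same-numbered libraries over 92 genes correlated with r of -0.07, -0.05 and 0.05. Whether same-numbered libraries were prepared together is not stated in the sources used here, and these correlations cannot settle it. Each replicate number is present in both groups, so a replicate block can alter the error of a log2 change but not its value. With the block the log2 changes were thus still 2.33, 3.23 and 5.05 for Gadd45a, Gadd45b and Gadd45g. All 3 members stayed past the thresholds with it, and 284 of the 345 listed genes were called higher. The Control values of Gadd45a rest on 5 to 20 reads, which limits their precision.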
